A study of Mus musculus with 45 samples.

Results

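Heterozygous loss of a large-subunit and of a small-subunit ribosomal protein gene, targeted to blood cells, was compared between 2 mouse lines. The change of VavCre Rpl5flox/+ against Rpl5flox/+ was set against that of VavCre Rps19flox/+ against Rps19flox/+ in the cytoplasm fraction of Ter119+ fetal liver cells. The comparison used 12 of 45 libraries, 3 for each of the 4 genotypes, and ran over every gene of the table. All 4 groups carried a heterozygous floxed allele, of Rpl5 in one line and of Rps19 in the other, and the VavCre groups also carried Cre driven by Vav, which is active in blood cells. The labels list no group with VavCre alone among these libraries, so an effect of Cre itself cannot be told apart from that of the flox deletion. Livers were taken at E15.5, treated with 25 µg/mL emetine (an inhibitor of translation elongation) for 15 min, and depleted of c-Kit+ cells before Ter119+ cells were taken with magnetic beads. Cells of each genotype were pooled in equal number before lysis, and poly(A) RNA from the cytoplasm part of a sucrose gradient was read with 100 bp reads. Each pool had a batch name of its own in the labels and no name was shared by both genotypes of a line, so the p-values reflect the spread from pool to pool and nothing wider.

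Every ribosome is built from ribosomal proteins, with Rpl5 in the large subunit and Rps19 in the small one, and shortage of either slows assembly of its subunit. Unassembled Rpl5, together with Rpl11 and 5S rRNA, binds Mdm2 and so stabilises p53, whereas deletion of Rps19 leaves the Rpl5 gene itself intact. In humans, mutations in either gene cause Diamond-Blackfan anaemia, in which erythroid precursors fail while granulocytes are mostly spared. Ter119 is carried by maturing and mature erythroid cells.

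Libraries held 44992730 to 123466214 reads. Erythroid identity was clear in all 12: globins made up 28.3% to 40.0% of reads in the libraries labelled VavCre Rpl5flox/+, against 52.0% to 63.4% in Rpl5flox/+, and 46.7% to 49.1% in VavCre Rps19flox/+, against 54.6% to 57.5% in Rps19flox/+. Hepatocyte markers made up 0.296% to 0.405% of reads outside the globins in the libraries labelled VavCre Rpl5flox/+, against 0.152% to 0.172% in Rpl5flox/+, and 0.0929% to 0.129% in VavCre Rps19flox/+, against 0.0438% to 0.132% in Rps19flox/+. Normalized counts summed over all genes came to 1.72e+07 to 2.22e+07 in the libraries labelled VavCre Rpl5flox/+, against 3.46e+07 to 7.04e+07 in Rpl5flox/+. They came to 2.78e+07 to 2.92e+07 in VavCre Rps19flox/+, against 3.98e+07 to 4.05e+07 in Rps19flox/+. The size of each log2 change thus depends on the size factors, and changes as a share of all reads were not tested. In such bulk samples fewer cells of a type and less RNA per cell cannot be told apart.

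The targeted genes came first. Rpl5 (chr5:107900508-107909005, mm10) had 455, 496 and 549 normalized counts in the libraries labelled VavCre Rpl5flox/+, against 295, 351 and 459 in Rpl5flox/+. The groups overlapped, and the higher values lay under the label that should carry the deletion. The change was 0.44 ± 0.16 on the log2 scale (SE, n = 3 each, adjusted p = 0.0278 by limma), so Rpl5 went against its label here. This call held in 13 of 18 settings. It was lost with libraries rescaled (adjusted p = 0.0677) and without Rpl5flox/+ replicate 1, Rpl5flox/+ replicate 2, or VavCre Rpl5flox/+ replicates 2 or 3, with adjusted p between 0.00362 and 0.132 over all settings. The gene overlaps Dipk1a, so some reads may not be its own. Against its own subunit Rpl5 ranked low: the other 48 large-subunit genes had a median change of 0.93 in the same libraries, and 4 of the 48 lay below it. In Kit+ cytoplasm Rpl5 had 576, 579 and 437 normalized counts in VavCre Rpl5flox/+, against 1096, 1112 and 930 in Rpl5flox/+, a change of -0.97 in the direction of the label. A fall in Kit+ was not particular to that label. The Rps19 line had 491, 748 and 691 in VavCre Rps19flox/+, against 1042, 986 and 866 in Rps19flox/+. That change of -0.59 was also called (adjusted p = 0.00574 by limma).

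Rps19 (chr7:24884592-24889811) had 10787, 13710 and 11573 normalized counts in VavCre Rps19flox/+, against 13048, 13099 and 15378 in Rps19flox/+. The groups overlapped, and the change of -0.21 ± 0.14 was not called (SE, n = 3 each, adjusted p = 0.302 by limma). The other 33 small-subunit genes had a median of -0.08 in that line, with 6 of the 33 below Rps19. In the Rpl5 line the same gene had 24222, 24496 and 24156 normalized counts in the libraries labelled VavCre Rpl5flox/+, against 11176, 10219 and 13241 in Rpl5flox/+, a rise of 1.08 ± 0.14 (adjusted p = 1.7e-05 by limma). Neither targeted gene was called lower in its own line in Ter119+ cytoplasm. In Kit+ cytoplasm Rps19 was called lower in its own line, by a change of -0.48 (adjusted p = 0.00325 by limma).

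Genome-wide, the Rpl5 line moved further than the Rps19 line. A gene is named as called where its adjusted p was under 0.05 by limma over the 10939 genes with a mean of at least 10 normalized counts. With the Rpl5 label 3865 genes were higher (35.3%) and 3295 lower (30.1%), while 1363 were higher with Rps19 (12.5%) and 1454 lower (13.3%). The difference between the lines, which is the Rpl5 change minus the Rps19 change, was called higher for 2245 genes (20.5%) and lower for 2291 (20.9%). Of these, 1649 were higher and 1418 lower by at least 1 on the log2 scale. Across genes the changes had an SD of 1.20 with Rpl5 and 0.66 with Rps19, and correlated with a Pearson coefficient of 0.41 (Spearman 0.43). Genes are not independent replicates, so this is a description. The Rps19 counts rested in part on 1 library: without VavCre Rps19flox/+ replicate 3 there were 888 higher and 866 lower.

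**Figure D1:**
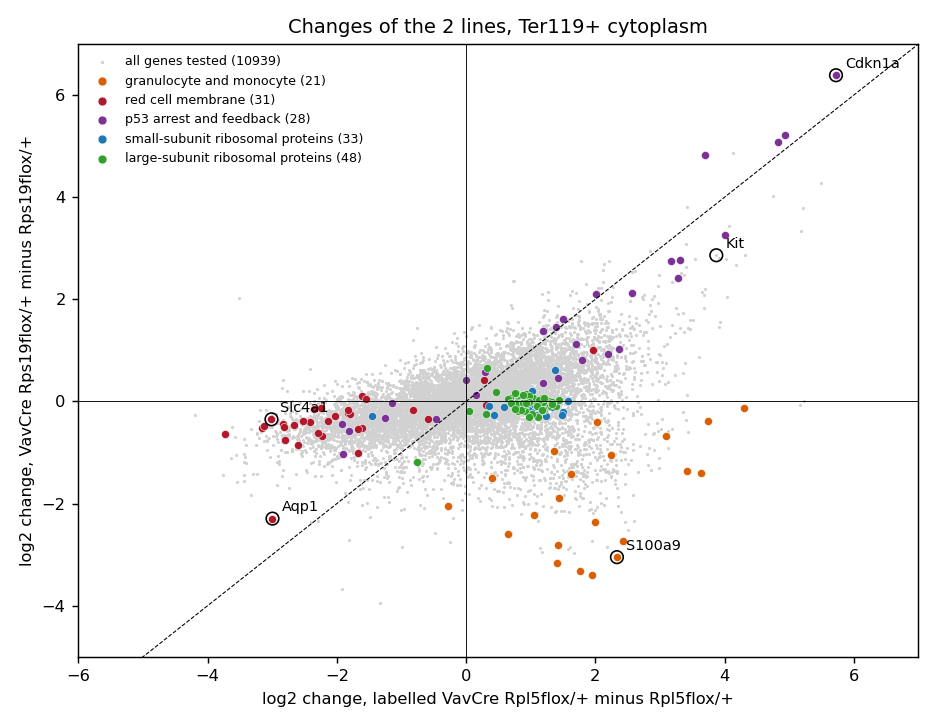
Change with Rpl5 (labelled VavCre Rpl5flox/+ minus Rpl5flox/+, horizontal axis, log2) and with Rps19 (VavCre Rps19flox/+ minus Rps19flox/+, vertical axis, log2), each point 1 of 10939 genes, with 5 gene lists coloured, 5 genes circled and a dashed line where both changes are equal. Genes spread wider with Rpl5 (SD 1.20) than with Rps19 (SD 0.66), Cdkn1a lies at 5.72 and 6.39, Slc4a1 at -3.01 and -0.35, and 12 granulocyte and monocyte genes were called higher with Rpl5 and lower with Rps19.

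Both lines shared a core. Called higher in both were 1066 genes (9.74%), which is 27.6% of the genes higher with Rpl5 and 78.2% of those higher with Rps19. Called lower in both were 848 genes (7.75%), or 25.7% and 58.3% of each line's lower genes. Of the 1066 shared higher genes, 771 had no called difference between the lines, and for 443 the 95% interval of that difference lay within 1 log2 unit on either side. Their median was 1.37 with Rpl5 and 0.93 with Rps19. Of the 848 shared lower genes 461 were called lower still with Rpl5, 384 had no called difference, and 255 had an interval within 1 unit, with medians of -1.49 and -0.70. The shared lower count fell to 527 without VavCre Rps19flox/+ replicate 2 and 463 without replicate 3. The remaining calls were mostly in the Rpl5 line alone: 1404 genes of higher and 1638 of lower difference were called with Rpl5 and not with Rps19, against 147 and 98 called with Rps19 only.

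The shared higher genes were led by p53 targets. Cdkn1a (chr17:29090979-29100722), which encodes the Cdk inhibitor p21, had 7400, 8263 and 8091 normalized counts in the libraries labelled VavCre Rpl5flox/+, against 130, 139 and 137 in Rpl5flox/+. It had 11378, 10944 and 11034 in VavCre Rps19flox/+, against 109, 103 and 146 in Rps19flox/+. Both VavCre groups lay far above their controls without overlap. The rise was 5.72 ± 0.13 with Rpl5 and 6.39 ± 0.13 with Rps19, and the difference of -0.66 ± 0.18 was called lower with Rpl5 (SE, n = 3 each, adjusted p = 0.00927 by limma). Zmat3, an RNA-binding p53 target, had 944, 945 and 1039 in the libraries labelled VavCre Rpl5flox/+, against 27.8, 15.9 and 14.8, and 1173, 881 and 1138 in VavCre Rps19flox/+, against 21.7, 4.78 and 27.4. Its difference was -0.28, with a 95% interval of -1.16 to 0.60. Phlda3, a p53 target that restrains Akt, rose by 4.82 and 5.09, with a difference of -0.26 and an interval of -1.12 to 0.59.

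Trp53, which encodes p53 itself, rose in both lines, by 1.04 ± 0.12 with Rpl5 and 1.00 ± 0.12 with Rps19. Its levels were 2628, 2802 and 2359 in the libraries labelled VavCre Rpl5flox/+, against 1310, 1143 and 1300 in Rpl5flox/+, and 2374, 2568 and 2644 in VavCre Rps19flox/+, against 1162, 1224 and 1381 in Rps19flox/+. Neither pair of groups overlapped, and the interval of the difference, -0.32 to 0.40, lay within 1 log2 unit of 0. Mdm2, whose protein marks p53 for degradation, was not called with Rpl5 (0.30 ± 0.16, adjusted p = 0.118 by limma). It was called with Rps19 (0.59 ± 0.16, adjusted p = 0.0169), a call lost without VavCre Rps19flox/+ replicates 1 or 3 or Rps19flox/+ replicate 3. Its difference of -0.29 was not called (adjusted p = 0.335 by limma), with an interval of -0.78 to 0.20. Over 28 p53 arrest and feedback targets, 19 were higher and 5 lower with Rpl5 (median 1.60), 17 higher and 2 lower with Rps19 (median 1.07), and 16 higher in both. The difference was called higher for 2 and lower for 6 (median -0.10, against 0.10 over all genes). Over all genes it was called higher for 20.5% and lower for 20.9%, so the 6 are near that share. Among 14 death-related p53 targets 7 were higher with Rpl5 and 4 with Rps19, with the difference higher for 7 and lower for 2. The 7 became 4 without VavCre Rpl5flox/+ replicate 2, Rpl5flox/+ replicate 1 or VavCre Rps19flox/+ replicates 1 or 2. Pmaip1, which encodes the death activator Noxa, had a change of 2.10 with Rpl5 and 0.73 with Rps19, a difference of 1.37.

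Kit, the stem cell factor receptor that falls silent as erythroid cells mature, also rose in both lines. It had 759, 721 and 852 normalized counts in the libraries labelled VavCre Rpl5flox/+, against 27.0, 25.7 and 83.4 in Rpl5flox/+, and 363, 230 and 332 in VavCre Rps19flox/+, against 68.0, 54.0 and 3.54 in Rps19flox/+. No groups of a line overlapped. Kit is 1 of 17 stem and progenitor markers, of which 2 were called higher and 5 lower with Rps19. The rises were 3.87 ± 0.52 and 2.86 ± 0.52, and the difference of 1.01 was not called, with an interval of -0.56 to 2.58. Ddit4, an mTOR inhibitor that p53 and stress induce, rose by 3.32 and 2.51 (difference 0.81, adjusted p = 0.0845 by limma). Cpt1c, Tmtc1 and Dglucy were among the 10 genes with the highest shared rise, at 3.42, 4.14 and 4.75 with Rpl5 and 3.81, 4.87 and 4.02 with Rps19, none with a called difference. C2cd4a, also among the 10, rose by 5.49 and 4.28. Its difference was called higher in 16 of 18 settings, and not with voom or without VavCre Rpl5flox/+ replicate 1. Among the 10 with the deepest shared fall, Shb, an adaptor of receptor signalling, fell by 1.83 and 1.97 and Mdga1, a cell surface protein, by 2.41 and 2.35, neither with a called difference.

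**Figure D2:**
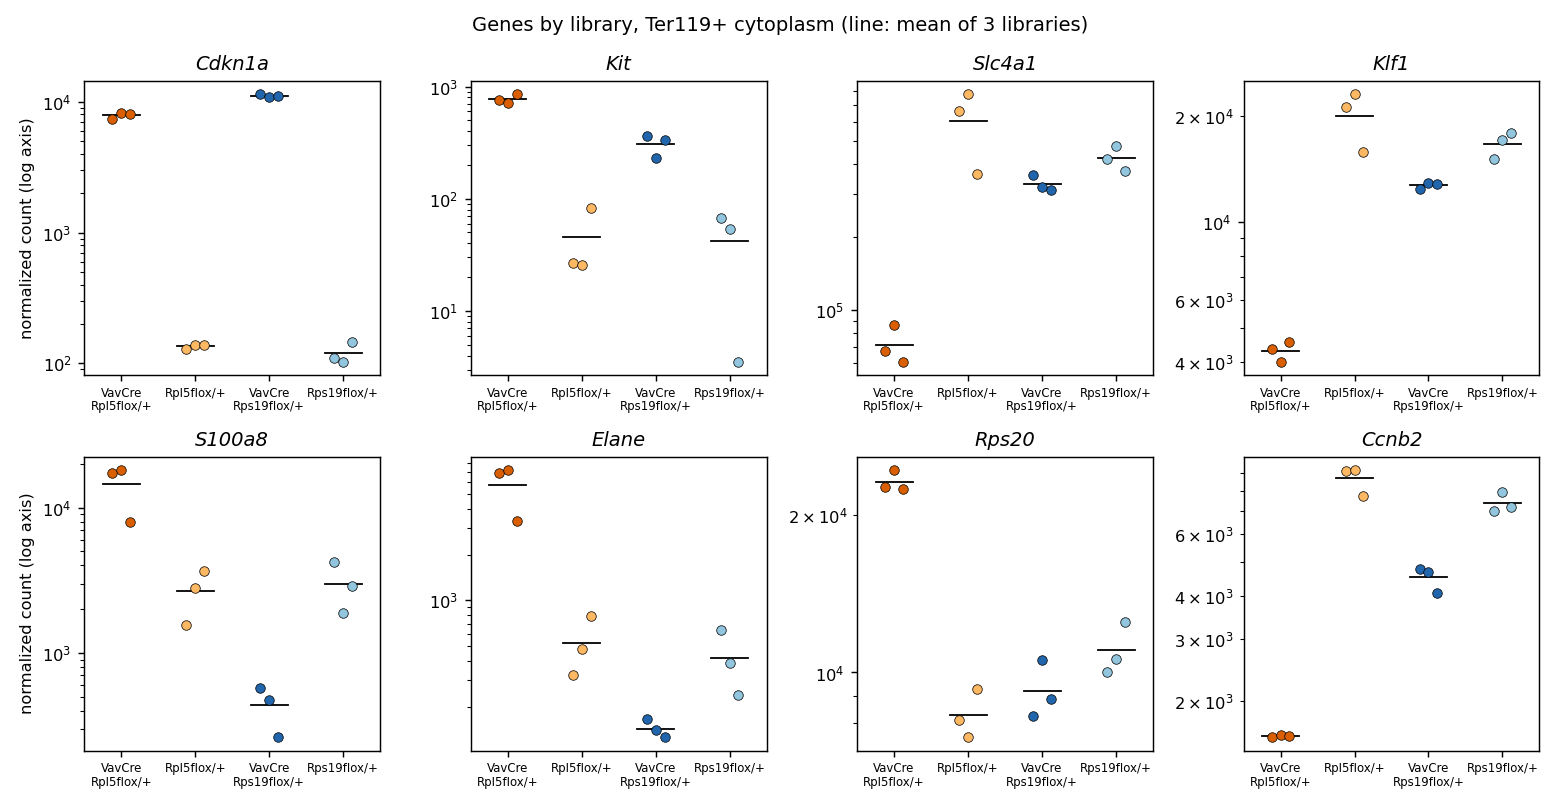
Normalized count (log axis) of 8 genes in each of the 12 libraries, 3 points and a line at their mean per genotype, with each VavCre group left of its floxed controls. Cdkn1a lies above its controls in both lines, Slc4a1 is lowest in the libraries labelled VavCre Rpl5flox/+ (61081 to 86206), and S100a8 is above its controls with Rpl5 and below them with Rps19.

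Shared lower genes included cell cycle and stress genes, with deeper falls in the Rpl5 line for most cell cycle members. Of 30 G2/M and mitosis genes 28 were lower with Rpl5 (median -1.91) and 19 with Rps19 (median -0.74), and 22 had a lower difference (median -1.32). Ccnb2, a B-type cyclin, had 1571, 1598 and 1586 normalized counts in the libraries labelled VavCre Rpl5flox/+, against 9130, 9155 and 7728 in Rpl5flox/+, and 4782, 4686 and 4072 in VavCre Rps19flox/+, against 7011, 7933 and 7160 in Rps19flox/+. The groups did not overlap in either line, and the difference was -1.73 ± 0.16 (SE, n = 3 each, adjusted p = 1.8e-05 by limma). Of 34 G1/S and replication genes 32 were lower with Rpl5 and 23 with Rps19, 20 with a lower difference (median -0.69), and the Rps19 count was 13 without VavCre Rps19flox/+ replicate 3. The summed level of the G1/S and replication list was 55091.9 to 58864.5 normalized counts in the libraries labelled VavCre Rpl5flox/+, against 143716 to 179950 in Rpl5flox/+. The total over all genes was also lower under that label, so these values do not show a fall as a share of reads. E2f8, a repressor active in S phase, fell by 2.99 and 0.86. Cdkn2d, the Cdk inhibitor p19, fell by 3.44 and 1.44. Aqp1, the red cell water channel, was lower in both, by 3.00 with Rpl5 and 2.29 with Rps19.

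Histone and stress response genes were lower in both lines for many members. Of 22 histone mRNAs tested 19 were lower with Rpl5 and 19 with Rps19, 17 in both, with the difference lower for 8 and higher for 3. H1f2 fell by 2.89 and 1.17. Several histone genes have near-identical copies, and reads could be split among them. The libraries were made from poly(A) RNA, so histone mRNA without a poly(A) tail was not measured. Of 39 histone genes listed, 22 were in the table. Of 22 integrated stress response genes, 11 were lower with Rpl5 and 17 with Rps19 (medians -0.79 and -0.93), with 11 lower in both. The difference was higher for 6 and lower for 3 (20.5% and 20.9% of all genes). The 17 became 11 without VavCre Rps19flox/+ replicate 2. Slc7a5, a leucine transporter, fell by 3.04 with Rpl5 and 1.09 with Rps19, a difference of -1.96. Phgdh, the first enzyme of serine synthesis, rose by 1.76 with Rpl5 and had a change of 0.43 with Rps19.

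Granulocyte and monocyte genes moved in opposite directions between the lines. Called higher with Rpl5 and lower with Rps19 were 313 genes (2.86%), and 12 of the 21 granulocyte and monocyte markers tested were among them. All 21 had a higher difference (median 4.13), with 18 higher with Rpl5 (median 1.94) and 15 lower with Rps19 (median -1.89). S100a8 (chr3:90669071-90670034), which makes a subunit of the granulocyte protein calprotectin, had 17468, 18158 and 7984 normalized counts in the libraries labelled VavCre Rpl5flox/+, against 1565, 2799 and 3684 in Rpl5flox/+. It had 572, 475 and 263 in VavCre Rps19flox/+, against 4223, 1893 and 2876 in Rps19flox/+. In both lines the groups were apart, in opposite order. The changes were 2.42 ± 0.39 and -2.73 ± 0.39, and the difference was 5.16 ± 0.56 (SE, n = 3 each, adjusted p = 3.17e-05 by limma). Camp, an antimicrobial peptide of neutrophil granules, differed by 5.33 and Prtn3, proteinase 3, by 5.05. Elane, neutrophil elastase, differed by 4.78, with 6796, 7155 and 3314 in the libraries labelled VavCre Rpl5flox/+, against 323, 477 and 786, and 166, 141 and 127 in VavCre Rps19flox/+, against 636, 391 and 240. The Rps19 call of Elane was lost without VavCre Rps19flox/+ replicate 3 or Rps19flox/+ replicate 1, and that of Prtn3 without VavCre Rps19flox/+ replicate 3. Ctsg, cathepsin G of primary granules, rose by 4.30 with Rpl5 and had a change of -0.12 with Rps19.

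S100a9, the partner of S100a8 in calprotectin, had 18198, 20051 and 9372 normalized counts in the libraries labelled VavCre Rpl5flox/+, against 1807, 3493 and 4169 in Rpl5flox/+, and 603, 490 and 175 in VavCre Rps19flox/+, against 4996, 1997 and 3324 in Rps19flox/+. Its difference, 5.38 ± 0.64, was the largest higher one by the naming rule. Ngp, a neutrophil granule protein, and Pglyrp1, a peptidoglycan-binding protein of the same granules, differed by 5.07 and 4.95. The stefin and cystatin genes Stfa1, Cstdc4 and Cstdc5, which have close copies, differed by 4.83, 5.03 and 5.01. Outside the granulocyte genes, Derpc, which overlaps Chtf8, differed by 5.24. Exosc6, a subunit of the RNA exosome, had 267, 228 and 325 normalized counts in the libraries labelled VavCre Rpl5flox/+ and 0 reads in the other 9, so no fold is given.

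The granulocyte and monocyte genes are markers of other cells that a Ter119+ isolation can hold. Of the list 22 were in the table and 21 were tested. The summed level of the 22 was 58923 to 119872 normalized counts in the libraries labelled VavCre Rpl5flox/+, against 11432 to 21594 in Rpl5flox/+. It was 2483 to 4454 in VavCre Rps19flox/+, against 10648 to 22137 in Rps19flox/+. That is 0.478% to 0.948% of reads outside the globins, against 0.0546% to 0.130%, and 0.0170% to 0.0301%, against 0.0590% to 0.121%. Other lineage markers went the same way in part. Cd34, a surface marker of stem and progenitor cells, had 520, 681 and 559 in the libraries labelled VavCre Rpl5flox/+, against 111, 121 and 271, and 34.6, 60.6 and 35.5 in VavCre Rps19flox/+, against 182, 161 and 246. The difference was 3.70 ± 0.41. Spi1, the myeloid transcription factor PU.1, differed by 3.35 and Cebpb, another myeloid factor, by 3.51. Of 17 stem and progenitor markers 12 were higher and 1 lower with Rpl5 (median 1.30), and 2 higher and 5 lower with Rps19 (median -0.50). The 5 became 3 without any 1 of 7 libraries, which were VavCre Rpl5flox/+ replicates 1 and 2, the 3 of VavCre Rps19flox/+, and Rps19flox/+ replicates 1 and 2. The summed share of the stem and progenitor list went the other way with Rpl5. It was 0.0814% to 0.0871% of reads outside the globins in the libraries labelled VavCre Rpl5flox/+, against 0.0961% to 0.102% in Rpl5flox/+. In VavCre Rps19flox/+ it was 0.0800% to 0.0865%, against 0.0911% to 0.100% in Rps19flox/+. Over the 17 stem and progenitor markers the difference was higher for 10 and lower for 1, over 6 mast cell and basophil markers for 5 and 1, and over 6 B-lymphoid markers for 3 and 0. Cd79b, part of the B cell receptor, differed by 3.54. Macrophage markers were lower with Rps19 for 12 of 17 (median -1.29) and with Rpl5 for 3. Of 18 hepatocyte markers 3 were higher with Rpl5, and no member was called with Rps19 or for the difference, but these counts moved with single libraries. The Rpl5 count was 0 without VavCre Rpl5flox/+ replicate 2 or Rpl5flox/+ replicate 3, 1 without VavCre Rpl5flox/+ replicate 3 or Rpl5flox/+ replicate 1, 5 without Rps19flox/+ replicate 1, 9 without Rps19flox/+ replicate 2 and 6 with voom. For the difference 6 were higher without Rps19flox/+ replicate 2, and with Rps19 3 were higher without Rps19flox/+ replicate 1. The part of other cells in the differences described here was not tested.

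The promoters of S100a8 and Elane are shown because both genes stood far apart between the lines. The GAGGAA core of ETS factors such as PU.1 (capitals, read on both strands) and the ACACCC box (capitals in Elane) are marked. The sequences run from 250 bases before to 50 after the start in RefSeq, GRCm38.p6, as chr3:90668821-90669120 (plus strand) and chr10:79886062-79886361 (plus strand).
S100a8: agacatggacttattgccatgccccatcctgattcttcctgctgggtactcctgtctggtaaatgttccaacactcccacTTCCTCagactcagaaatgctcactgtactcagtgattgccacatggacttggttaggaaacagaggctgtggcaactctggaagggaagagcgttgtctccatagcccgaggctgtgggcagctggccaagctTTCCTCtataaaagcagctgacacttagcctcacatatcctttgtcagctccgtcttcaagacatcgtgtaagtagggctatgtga
Elane: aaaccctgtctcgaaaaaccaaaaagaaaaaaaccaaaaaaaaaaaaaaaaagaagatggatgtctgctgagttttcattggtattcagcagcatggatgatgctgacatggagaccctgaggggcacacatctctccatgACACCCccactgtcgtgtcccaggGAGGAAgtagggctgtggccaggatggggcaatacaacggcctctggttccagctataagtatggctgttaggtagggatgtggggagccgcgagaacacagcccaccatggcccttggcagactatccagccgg
GAGGAA was found in 12 of 21 promoters of granulocyte and monocyte genes (57.1%), against 26.4% of 11215 promoters of genes tested. The 21 promoters came from 19 genes, so some genes counted more than once. TTGCNNAA, a C/EBP motif, was in 5 of the 21 (23.8%, against 8.51%). A match is a description of letters and not a bound site.

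Erythroid genes fell with the Rpl5 label and much less or not at all by the test with Rps19. Slc4a1 (chr11:102348820-102365281), the band 3 anion exchanger of the red cell membrane, had 67779, 86206 and 61081 normalized counts in the libraries labelled VavCre Rpl5flox/+, against 661225, 777566 and 364399 in Rpl5flox/+. It had 361534, 320844 and 312522 in VavCre Rps19flox/+, against 419507, 476882 and 374830 in Rps19flox/+. Values under VavCre were the lower in both lines, without overlap, and by a wide margin in the Rpl5 line. The Rpl5 change was -3.01 ± 0.30, the Rps19 change -0.35 ± 0.30 (not called, adjusted p = 0.421), and the difference -2.66 ± 0.43 (SE, n = 3 each, adjusted p = 0.000383 by limma). Klf1, the master erythroid transcription factor, had changes of -2.19 and -0.39 (difference -1.80 ± 0.21, adjusted p = 4.3e-05). Gata1, the factor that defines the erythroid lineage, had 3736, 3465 and 4149 in the libraries labelled VavCre Rpl5flox/+, against 10688, 12368 and 9841, and 7788, 7922 and 7741 in VavCre Rps19flox/+, against 9240, 9648 and 11061. Its change was -1.53 with Rpl5 and -0.35 with Rps19, with a difference of -1.18 ± 0.18.

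Epor, the erythropoietin receptor, had 1702, 1503 and 1914 normalized counts in the libraries labelled VavCre Rpl5flox/+, against 7072, 7375 and 5875, and 5156, 4885 and 4959 in VavCre Rps19flox/+, against 6743, 6742 and 6870. Its change was -1.98 with Rpl5 and -0.44 with Rps19, and the Rps19 call was lost without VavCre Rps19flox/+ replicates 2 or 3. Icam4, a red cell adhesion molecule of the LW blood group, had changes of -2.61 and -0.85, a difference of -1.76 ± 0.18 (adjusted p = 2.75e-05 by limma). Both promoters are shown because both genes fell further with Rpl5 and hold an AGATAA motif of GATA factors (capitals, minus strand). They lie in RefSeq, GRCm38.p6, at chr9:21963527-21963826 (minus strand) and chr9:21029182-21029481 (plus strand), with the same window.
Epor: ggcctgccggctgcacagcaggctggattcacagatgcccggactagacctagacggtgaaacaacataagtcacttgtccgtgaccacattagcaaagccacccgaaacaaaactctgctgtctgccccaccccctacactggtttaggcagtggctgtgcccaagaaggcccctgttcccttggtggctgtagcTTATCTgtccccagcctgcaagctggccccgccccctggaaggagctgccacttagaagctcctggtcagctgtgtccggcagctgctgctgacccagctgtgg
Icam4: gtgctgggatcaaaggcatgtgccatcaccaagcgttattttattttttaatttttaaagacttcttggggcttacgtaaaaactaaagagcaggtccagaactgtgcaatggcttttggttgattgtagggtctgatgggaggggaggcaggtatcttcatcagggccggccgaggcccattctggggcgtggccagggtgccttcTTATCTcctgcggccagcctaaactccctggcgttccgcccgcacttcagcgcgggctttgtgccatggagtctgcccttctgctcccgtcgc
AGATAA was in 7 of 33 promoters of red cell membrane genes (21.2%) and 3 of 21 granulocyte and monocyte promoters (14.3%), against 6.52% of 11215 promoters. The 33 promoters came from 21 genes, so some genes counted more than once. ACACCC was in 8 of the 33 (24.2%, against 16.0%), and GAGGAA in 10 of the 33 (30.3%).

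By list, 31 red cell membrane and blood group genes had a lower difference for 26 and a higher one for 1 (Cd44), with medians of -2.22 with Rpl5, -0.39 with Rps19 and -1.71 for the difference. With Rpl5 28 of them fell, and 7 fell with Rps19. The Rps19 count was 4 without VavCre Rps19flox/+ replicates 2 or 3 or Rps19flox/+ replicates 1 or 2, 11 without Rpl5flox/+ replicate 2, 14 without Rpl5flox/+ replicate 3 and 12 with the replicate block. Slc2a4, a glucose transporter, had one of the deepest falls, 160, 136 and 133 in the libraries labelled VavCre Rpl5flox/+, against 2314, 2283 and 1680, with a difference of -3.10 ± 0.21. Of 30 late erythroid genes 24 had a lower difference (median -1.30), of 30 erythroid transcription factor and Epor signalling genes 21 lower and 3 higher (median -1.19), and of 20 heme synthesis genes 14 lower and 2 higher (median -1.27). Alas2, the erythroid rate-limiting enzyme of heme synthesis, which overlaps Apex2, had changes of -2.41 and -0.34, and Cpox, coproporphyrinogen oxidase of the same pathway, changes of -2.22 and -0.13. The exceptions were Alas1, the housekeeping isoform, and Hmox1, which degrades heme. Both had a higher difference, and with Rpl5 Alas1 rose by 2.41 and Hmox1 by 1.85. Flvcr1, a heme exporter, rose by 1.31 with Rpl5 and 1.35 with Rps19.

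Of 20 iron genes 10 had a lower difference and none a higher one. Tfrc, the transferrin receptor, had 9579, 8908 and 13970 normalized counts in the libraries labelled VavCre Rpl5flox/+, against 47688, 47242 and 51325, and 23078, 14979 and 19760 in VavCre Rps19flox/+, against 47990, 31465 and 39023. It fell by 2.20 and 1.04, with a difference of -1.16. Of 9 globin genes tested, whose near-identical copies share reads, the difference had a median of -1.30 and was called lower for Hbq1b alone. That count was 5 with voom, 3 with the replicate block and 7 without Rpl5flox/+ replicate 3. With Rpl5 6 were lower (3 without VavCre Rpl5flox/+ replicate 3) and 2 higher, the 2 being the embryonic Hba-x and Hbb-y, with changes of 1.94 and 2.14. With Rps19 those 2 had changes of 0.90 and 0.98 that were not called. Gata2, an early progenitor factor that Gata1 displaces, moved the other way from Gata1: 264, 264 and 212 in the libraries labelled VavCre Rpl5flox/+, against 27.0, 46.6 and 46.2, and 40.1, 20.5 and 26.4 in VavCre Rps19flox/+, against 26.9, 22.5 and 46.0. The difference was 2.38 ± 0.38 (adjusted p = 0.000322 by limma).

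Genes of several kinds were among the largest lower differences. Natd1 had 306, 277 and 304 normalized counts in the libraries labelled VavCre Rpl5flox/+, against 3211, 2864 and 2431 in Rpl5flox/+, and 2023, 2227 and 1792 in VavCre Rps19flox/+, against 2133, 2767 and 1908 in Rps19flox/+. The groups were apart in the Rpl5 line and overlapped in the Rps19 line, with a difference of -3.03 ± 0.22 (SE, n = 3 each, adjusted p = 9.5e-06 by limma). Trim58, a ubiquitin ligase of late erythroid cells, differed by -2.97, Endod1 by -2.93 and Rab43, a small GTPase, by -2.88. Of those that overlap another gene, Sik2, a salt-inducible kinase, differed by -3.10, Snx22, a sorting nexin, by -3.12, Gm16867 by -3.25, Zfp526 by -3.05 and Rnf123, a ubiquitin ligase, by -2.84. Gm28036, which has no position in the annotation used, differed by -5.55, with 0, 8.29 and 2.70 normalized counts in the libraries labelled VavCre Rpl5flox/+, against 260, 66.2 and 132 in Rpl5flox/+, and 240, 187 and 224 in VavCre Rps19flox/+, against 73.2, 255 and 0 in Rps19flox/+.

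**Figure D3:**
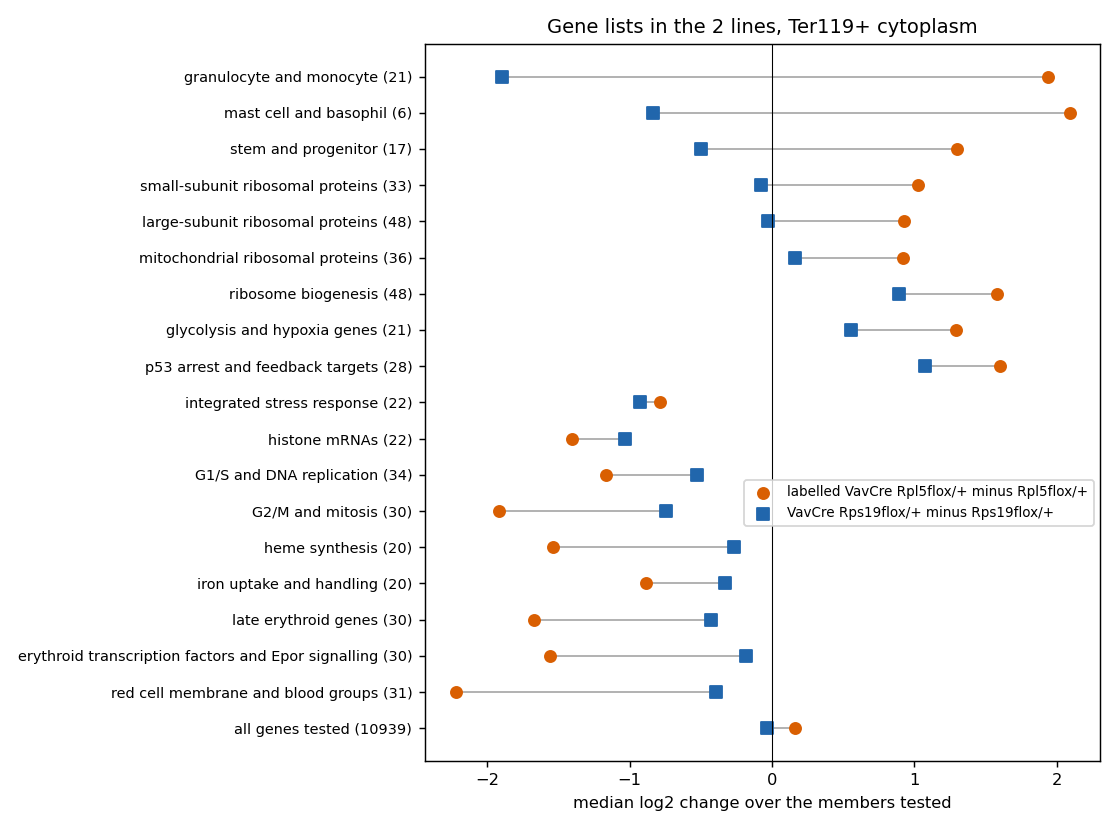
Median log2 change over the tested members of each list (number in brackets), circles for labelled VavCre Rpl5flox/+ minus Rpl5flox/+ and squares for VavCre Rps19flox/+ minus Rps19flox/+. The p53 list is high in both lines (1.60 and 1.07), red cell membrane genes are low mainly with Rpl5 (-2.22 and -0.39), and granulocyte genes lie on opposite sides of 0 (1.94 and -1.89).

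Ribosomal protein mRNAs rose with the Rpl5 label while those of the Rps19 line stayed near their controls. Of 33 small-subunit genes 31 were higher with Rpl5 (median 1.03) and 1 with Rps19 (median -0.08), and 31 had a higher difference (median 1.02). Of 48 large-subunit genes 44 were higher and 1 lower with Rpl5 (median 0.93), 1 higher and 1 lower with Rps19 (median -0.03), and 42 had a higher difference (median 0.99). Rps20, which lies in the head of the small subunit, had 22598, 24341 and 22387 normalized counts in the libraries labelled VavCre Rpl5flox/+, against 8107, 7523 and 9310 in Rpl5flox/+, and 8253, 10562 and 8892 in VavCre Rps19flox/+, against 10018, 10599 and 12482 in Rps19flox/+. Groups were apart in the Rpl5 line and overlapped in the Rps19 line. Its difference was 1.74 ± 0.20 (SE, n = 3 each, adjusted p = 4.3e-05 by limma). Rpl36, of the large subunit, had 12032, 11592 and 10835 in the libraries labelled VavCre Rpl5flox/+, against 4426, 4372 and 4960 in Rpl5flox/+, and 4792, 5992 and 5432 in VavCre Rps19flox/+, against 5110, 5025 and 6255 in Rps19flox/+. Its difference was 1.34 ± 0.18.

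The exceptions were few. Of the 33 small-subunit genes, 1 (not named here) lay below 0 with Rpl5, at -1.46, with a difference of -1.18. Neither value was called, but the list had 1 gene called lower with Rpl5 under the replicate block and without VavCre Rpl5flox/+ replicate 2. Rpl22l1, a paralogue of Rpl22, was lower in both lines, by 0.77 with Rpl5 and 1.18 with Rps19. Rpl10, which joins the large subunit late, had a change of 0.33 with Rpl5, which was not called, and one of 0.65 with Rps19, a call lost without VavCre Rps19flox/+ replicate 2. Rps27l, a p53-inducible paralogue of Rps27, rose by 1.37 with Rpl5 and 0.61 with Rps19, and the Rps19 call was lost without Rps19flox/+ replicate 1 or VavCre Rps19flox/+ replicates 2 or 3. Many ribosomal protein genes have pseudogenes, so single genes are uncertain. Eef1b2, a subunit of the elongation factor complex whose mRNA carries the same terminal oligopyrimidine start, rose by 1.65 with Rpl5 and had a change of -0.04 with Rps19. Of 24 translation factor and other mRNAs of that kind, Eef1b2 among them, 10 had a higher and 2 a lower difference. The direction of both ribosomal protein lists held in every setting run, with medians of the difference from 0.94 to 1.11 for the small subunit and from 0.90 to 1.07 for the large.

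**Figure D4:**
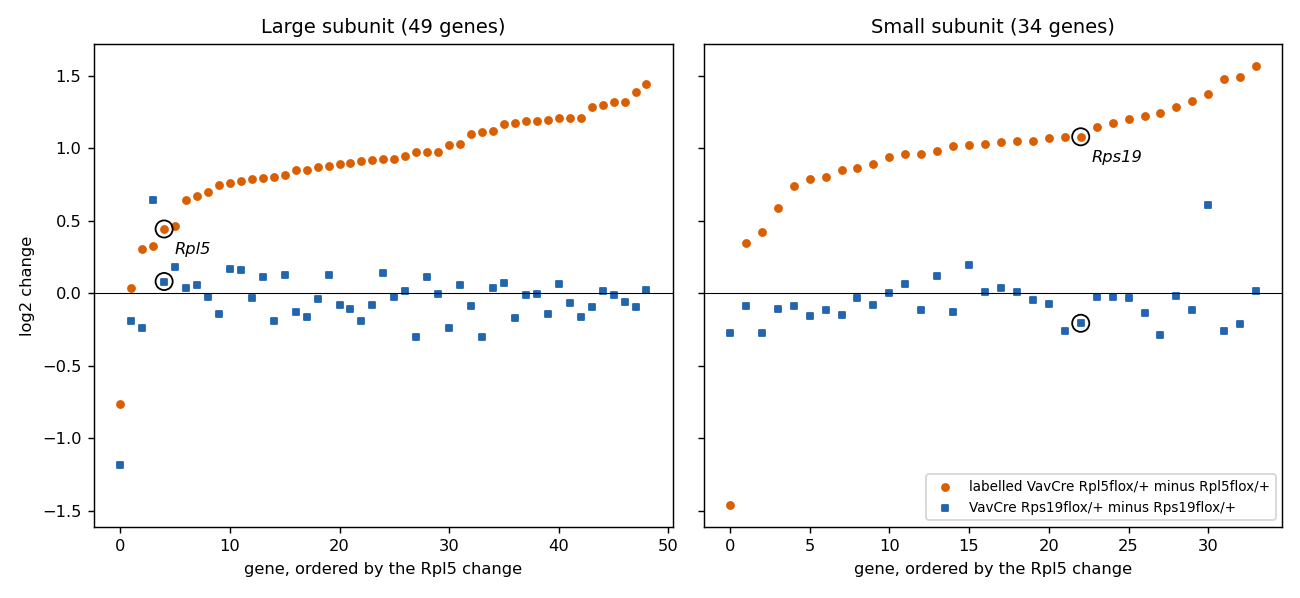
Log2 change of each ribosomal protein gene (vertical axis) in the order of its Rpl5 change (horizontal axis), for the large subunit on the left and the small on the right, circles for labelled VavCre Rpl5flox/+ minus Rpl5flox/+ and squares for VavCre Rps19flox/+ minus Rps19flox/+, with the targeted genes ringed. The medians are 0.93 and 1.03 with Rpl5 and -0.03 and -0.08 with Rps19, and Rpl5 itself lies at 0.44 in the Rpl5 line.

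Ribosome biogenesis factors rose in both lines, further with Rpl5. Of 48 such genes 42 were higher and 1 lower with Rpl5 (median 1.58), 34 higher with Rps19 (median 0.89), 32 higher in both, and 21 had a higher and 1 a lower difference (median 0.66). Npm1, the nucleolar protein nucleophosmin, had 16137, 18358 and 25972 normalized counts in the libraries labelled VavCre Rpl5flox/+, against 2619, 2529 and 4333 in Rpl5flox/+, and 6505, 6779 and 7869 in VavCre Rps19flox/+, against 3673, 3575 and 2981 in Rps19flox/+. VavCre values lay above the controls in both lines without overlap. Npm1 rose by 2.68 and 1.05, a difference of 1.64 ± 0.30 (SE, n = 3 each, adjusted p = 0.000849 by limma). Nop10, part of the box H/ACA particle that modifies rRNA, rose by 2.04 with Rpl5 and had a change of 0.44 with Rps19. Of 36 mitochondrial ribosomal protein genes 28 were higher with Rpl5, 7 with Rps19, and 23 had a higher difference (median 0.73). The 7 became 3 without VavCre Rps19flox/+ replicates 2 or 3 or Rps19flox/+ replicate 1, and 4 without Rps19flox/+ replicate 2. Mrpl12, of the mitochondrial large subunit, had changes of 1.97 and 0.40.

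Of 21 glycolysis and hypoxia genes 15 were higher and 3 lower with Rpl5, 11 higher with Rps19, and 12 had a higher and 2 a lower difference (median 0.89). Pkm, pyruvate kinase, had 10389, 9056 and 6208 normalized counts in the libraries labelled VavCre Rpl5flox/+, against 1161, 1061 and 1154, and 3293, 3936 and 4348 in VavCre Rps19flox/+, against 1294, 1244 and 1748. It rose by 2.88 and 1.43, with a difference of 1.45 ± 0.26. Aldoa, aldolase A, rose by 2.24 and 0.98. Of 25 mTOR brake and autophagy genes 15 were lower and 8 higher with Rpl5, 4 higher with Rps19, and 14 had a lower and 2 a higher difference. Of 31 proteasome subunits 16 were lower and 6 higher with Rpl5 (30.1% and 35.3% of all genes), and none was called with Rps19. The difference was lower for 9 and higher for 2 (20.9% and 20.5% of all genes), with a median of -0.20. Dusp1, an immediate early phosphatase, fell by 3.56 with Rpl5 and 1.05 with Rps19. Of 19 immediate early genes 9 were higher and 6 lower with Rpl5 (35.3% and 30.1% of all genes), with a median of 0.69. With Rps19 1 was higher and 12 were lower (median -0.75). The 12 became 7 without VavCre Rps19flox/+ replicate 3 or Rps19flox/+ replicate 1. The difference was higher for 11 (7 without VavCre Rpl5flox/+ replicate 1) and lower for 4.

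The reverse pattern, lower with Rpl5 and higher with Rps19, was rare at 40 genes (0.366%). With the replicate number as a block the count was 83. It was 18 to 76 with 1 library left out, 18 to 25 without any 1 of VavCre Rpl5flox/+ replicate 1, VavCre Rps19flox/+ replicates 1, 2 or 3, or Rps19flox/+ replicates 1 or 3, and 76 without Rpl5flox/+ replicate 3. Tfr2, the second transferrin receptor and a partner of Epor, had 600, 674 and 687 normalized counts in the libraries labelled VavCre Rpl5flox/+, against 1142, 1273 and 1117, and 1724, 1571 and 1500 in VavCre Rps19flox/+, against 1180, 1136 and 1024. The groups stood apart in both lines, in opposite order, with changes of -0.83 and 0.52 and a difference of -1.35 ± 0.16 (SE, n = 3 each, adjusted p = 6.29e-05 by limma). Wnk4, a kinase of ion transport, had changes of -1.02 and 0.81 and Scyl3, a kinase-like protein, changes of -0.80 and 0.89. Uba1, the main ubiquitin-activating enzyme, and Cabin1, a calcineurin inhibitor, had changes of -0.90 and -0.95 with Rpl5 and of 0.77 and 0.75 with Rps19. The Rps19 call was lost without VavCre Rps19flox/+ replicate 1 or Rps19flox/+ replicate 3 for both, and also without Rps19flox/+ replicate 1 or VavCre Rps19flox/+ replicate 3 for Uba1.

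Placed directly side by side, the VavCre groups differed by 3094 genes higher in the libraries labelled VavCre Rpl5flox/+ than in VavCre Rps19flox/+ (28.3%) and 2517 lower (23.0%). The floxed controls differed by 0 genes (0%) by limma, with 1177 at an unadjusted p under 0.05, and by 0 with voom on recovered reads, with 831. That count was 26 without Rps19flox/+ replicate 1, and 1 without Rpl5flox/+ replicate 2 or without Rps19flox/+ replicate 2. Between the VavCre groups 21 of 21 granulocyte markers, 31 of 33 small-subunit and 44 of 48 large-subunit genes were higher with the Rpl5 label, and 26 of 31 red cell membrane genes were lower. The controls leaned by list without a called member. Rpl5flox/+ lay below Rps19flox/+ for 33 of 33 small-subunit (median -0.25) and 45 of 48 large-subunit genes (median -0.22). Medians between the VavCre groups were 0.82 and 0.77, against 1.02 and 0.99 for the difference between the lines. Rpl5flox/+ lay above Rps19flox/+ for 29 of 31 red cell membrane genes (median 0.31) and 14 of 21 granulocyte markers (median 0.08). The hepatocyte markers were also higher between the VavCre groups for 17 of 18 (median 1.45). The controls leaned the same way for 18 of 18 (median 1.14), with none called, and the part of those cells was not tested.

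The same difference between the lines was taken in Kit+ cytoplasm, from the c-Kit+ cells isolated before the Ter119+ step. The difference in Ter119+ minus that in Kit+ was called higher for 837 of 11018 genes (7.60%) and lower for 676 (6.14%). Granulocyte and monocyte markers had a median difference of 4.13 in Ter119+ and 2.93 in Kit+, and no member was called between the cell types. Ribosomal proteins had medians of 1.02 in Ter119+ and 0.65 in Kit+ for the small subunit and 0.99 and 0.54 for the large, and 12 of 48 large-subunit genes were called higher in Ter119+. For the small subunit it was 3 of 33, a share near that of all genes. Ribosome biogenesis genes parted: the median difference was 0.66 in Ter119+ and -0.19 in Kit+, and 21 of 48 were called higher in Ter119+ than in Kit+. Of the red cell membrane genes 11 of 31 had a more negative difference in Ter119+ and 1 a more positive one, and of the G2/M genes 13 of 30 a more negative one. Ccnb2 differed by -1.73 in Ter119+ and -0.42 in Kit+, and Trp53 by 0.04 in Ter119+ and -1.01 in Kit+.

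**Figure D5:**
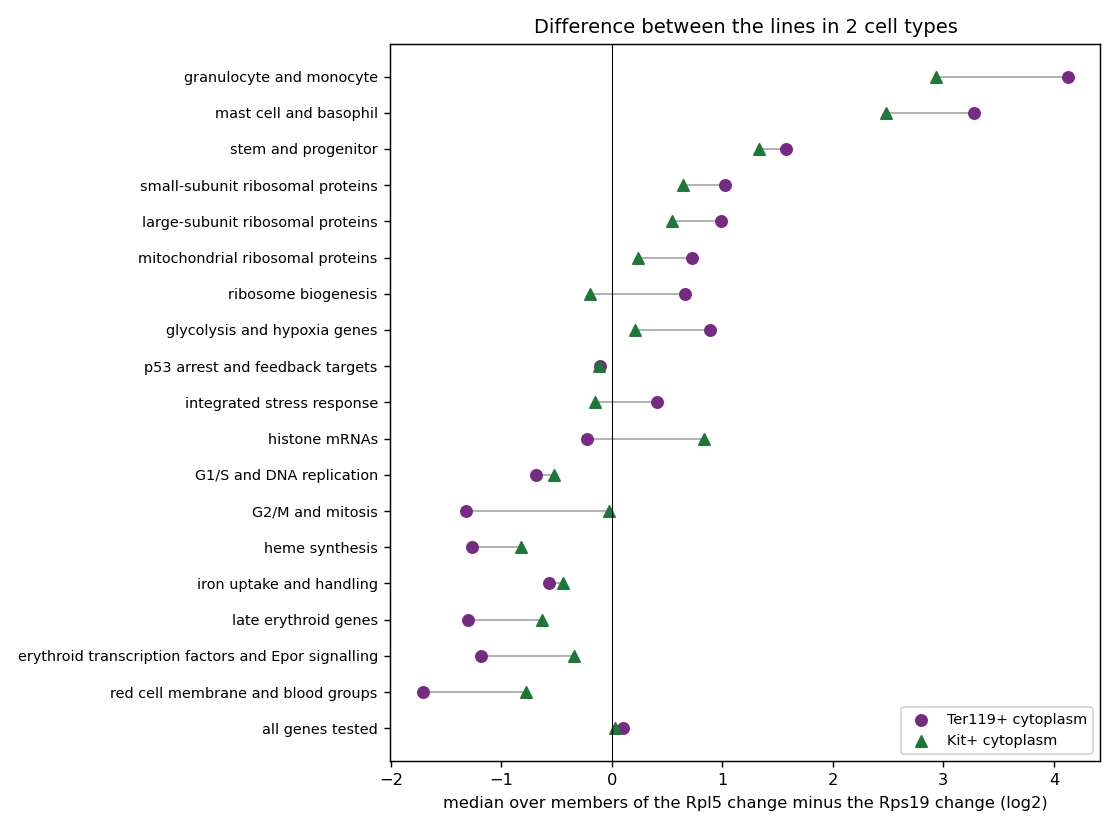
Median over the members of each list of the Rpl5 change minus the Rps19 change (horizontal axis, log2), circles for Ter119+ and triangles for Kit+ cytoplasm. Granulocyte genes are high in both (4.13 and 2.93), and ribosome biogenesis is above 0 in Ter119+ (0.66) and below 0 in Kit+ (-0.19).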

How the data were processed

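Poly(A) RNA of Ter119+ cytoplasm was compared in 12 libraries, and Kit+ cytoplasm (12 more) was used for the comparison of cell types. The values deposited by the authors are log2 values on a variance-stabilising scale, computed after each library's reads were scaled by a size factor. The genome build is mm10, per the submitters' processing notes (aligner and counter: not given in the sources used here). The scale was inverted and whole reads came out for 100% of the values (tolerance 1e-06, largest deviation 4.95e-07). The size factors are medians of ratios to the geometric mean library, taken over 2434 genes detected in every library of the series, and 0 reads stand at the lowest value, 2.92263. No 2 libraries of a group were copies.

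The deposited log2 values were fitted with limma 3.58.1 (R 4.3.3), using a mean-variance trend in eBayes, 1 model for all 4 genotypes, and genes whose mean was at least 10 normalized counts. Tests were two-sided, adjusted by Benjamini-Hochberg across every gene fitted, and called under 0.05. The planned log2 of a normalized count plus 1 became an alternative, because the file is already on a log2 scale. Alternatives were no filter, a mean of at least 100, rescaled libraries, voom on the recovered reads, a replicate block, and each library left out. Deviations of same-numbered libraries from their group means correlated weakly in the Rpl5 line (0.13, 0.27 and 0.15). Libraries of different number were not set beside them, so these values cannot show whether the numbers mark pairs. The p-values given are without the block, which is an alternative only.

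Members and lists were chosen with earlier results of these data known. Genes named are the 12 fixed genes, the 12 with the largest higher and lower differences, the 10 highest and lowest shared, up to 4 members of each list by the difference and 2 by either change, up to 5 opposite genes, and all where 5 or fewer were called. Lists were matched by symbol and RefSeq, GRCm38.p6; 5 of 20 aminoacyl-tRNA synthetases, 22 of 39 histones and 9 of 14 globins were in the table. The text describes part of the genes that this rule names, and some are not reported here.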

Additional observations from a re-analysis of the deposited data

Results flagged for a closer look

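The difference between the lines was itself different in Ter119+ and in Kit+ cytoplasm, by a test of that contrast, for 837 genes that were higher in Ter119+ and 676 that were lower. The genes given here are taken from the named genes that overlap no other gene and had reads in all 4 Ter119+ groups. Called ones such as Sik2 (-2.25), which overlaps Ppp2r1b, are therefore not among them. Exosc6 was also called, higher in Ter119+, but had 0 reads in 3 of the Ter119+ groups, so no size is given. Cdkn2d, a Cdk inhibitor, stood out at -2.69, with a difference of -2.00 in Ter119+ and 0.69 in Kit+. H1f2, a linker histone, had -2.02, and Amot, a cell junction protein, -1.93. Tfrc, the transferrin receptor, had -1.75 (-1.16 in Ter119+ and 0.59 in Kit+), and Gata1 -0.83.

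In the other direction lay Cd79b at 1.82, Vars2, a mitochondrial tRNA synthetase, at 1.58, Phgdh at 1.54 and Gata2 at 1.51. Trp53 had 1.05. It rose in both lines in Ter119+ and, in Kit+, had a change of -0.03 with Rpl5 and 0.98 with Rps19.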

How the results depend on the processing

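Of the named genes, 182 had the difference between the lines called, and 166 of them kept direction and call under every setting that tested them. Many were named for the size or adjusted p of that difference in the same libraries. The share kept was thus largely set by the choice of genes and does not speak for all genes. With a mean of at least 100, fewer genes were tested: the difference was called higher for 1430 (2245 in the main setting), the Rpl5 change for 2435 (3865), and the pattern higher with Rpl5 and lower with Rps19 for 183 (313). The share of called differences that were higher was then 38.5%, against 49.5%, and 43.7% with rescaled libraries, which moved the median difference of all genes to 0.02 and that of the Rpl5 change to 0.10. With 1 library left out, calls ranged from 3768 to 4966 for the difference (1824 to 2489 higher, 1896 to 2477 lower), 6505 to 7347 for Rpl5 (3443 to 3982, 2989 to 3365) and 1754 to 3140 for Rps19 (888 to 1499, 866 to 1641). Shared higher genes ranged from 723 to 1131, shared lower from 463 to 1020, opposite genes from 212 to 362 and from 18 to 76, VavCre groups from 4580 to 5863, and controls from 0 to 26.

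With the replicate block the count lower with Rpl5 and higher with Rps19 was 83 (40 without the block). The other blocked counts moved by less than 1.5 times, with 2468 higher and 2536 lower differences, and none of the called differences of named genes was lost. In the Rps19 line the same-numbered libraries correlated at 0.36, 0.01 and 0.05, which cannot show pairs either. The block gave 1549 higher and 1845 lower calls there, against 1363 and 1454. Small counts of members by the difference also moved with 1 library left out. Without Rpl5flox/+ replicate 3 they were 4 higher p53 arrest targets (2 in the main setting, and as few as 1 without other libraries), 4 lower translation factor mRNAs (2) and 5 higher proteasome subunits (2, and as few as 0 without other libraries). Higher erythroid factors were 1 (3) without VavCre Rpl5flox/+ replicates 1 or 2 or VavCre Rps19flox/+ replicate 1, higher histones 1 (3) without VavCre Rpl5flox/+ replicate 3, and lower interferon genes 3 (1) without Rps19flox/+ replicate 1. With 3 libraries a group, genes of few reads had wide intervals, as for Kit (-0.56 to 2.58).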

Other observations

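Members of other gene lists also differed between the lines. Of 17 interferon response genes the difference was higher for 6 and lower for 1 (20.5% and 20.9% of all genes). The list was mixed: 10 members had a positive and 7 a negative difference, and with Rpl5 7 were higher and 4 lower. The median difference was 0.39, and -0.05 to 0.77 over the settings run. Rpl5flox/+ lay above Rps19flox/+ for 17 of 17 (median 0.59), with none called. The members named next are among the higher ones. Ifitm3, an antiviral membrane protein, had a difference of 3.58 ± 0.34 and Ifitm2 one of 2.85, while Bst2, tetherin, differed by 1.98. Ifitm1 differed by 3.56. Of 13 genes of the fetal Lin28b programme 5 had a higher difference and none a lower one. Hmga2, a chromatin protein of fetal stem cells, rose by 2.99 with Rpl5 and had a change of 0.40 with Rps19, and Igf2bp1, an RNA-binding protein, rose by 2.02 with Rpl5 and 1.22 with Rps19. Among immediate early genes Nr4a1, a nuclear receptor, differed by 3.08 and Zfp36, which destabilises mRNAs, by 1.95.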
